A study of Mus musculus with 2 samples.

Results

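Oxidative phosphorylation is described here through the transcripts of its subunits, in T cells, macrophages and Krt20-positive cells of mouse tumours grown under a control or a serine/glycine-free diet. The members were the genes whose symbols begin with Nduf (letters a, b, c, s or v next), Uqcr, Cox4 to Cox8 or Atp5, the genes Sdha to Sdhd, and the protein-coding genes of the mitochondrial genome. These rules took 107 of the 32285 genes in the files. The nuclear genome encodes 94 of them, namely 86 subunits and 8 complex I assembly factors (the Ndufaf genes), and the mitochondrial genome encodes 13. The 86 nuclear subunits comprised 37 of complex I, 4 of complex II, 8 of complex III, 20 of complex IV, 9 of which are alternative isoforms, and 17 of complex V. Of the 13 mitochondrial members, 7 belong to complex I, 1 to complex III, 3 to complex IV and 2 to complex V.

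Complex I (NADH dehydrogenase) and complex II (succinate dehydrogenase) pass electrons to ubiquinone, complex III passes them on to cytochrome c, and complex IV (cytochrome c oxidase) reduces oxygen. The proton gradient that complexes I, III and IV build drives complex V, the ATP synthase. All of these complexes but complex II are assembled from proteins of both genomes, so the nucleus and the mitochondrion each supply a share of the transcripts, and several complex IV subunits exist as alternative isoforms that differ between tissues or with oxygen supply.

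The data came from subcutaneous mouse tumours, with 1 library from the control diet and 1 from a diet without serine and glycine. Each was made with a droplet method that reads RNA and T cell receptors from the same cells. The labels name neither the tumour line nor the number of mice behind a library, and the text of their extraction protocol describes human heart tissue. With 1 library per diet there was no replicate, so no difference between diets was tested, and every interval below is an exact 95% interval that covers counting error only.

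The control library held 8466 cell barcodes and the serine/glycine-free library 7999, and 104 barcodes occurred in both. T cells were barcodes with a rearranged TRB chain (242 in the control library and 243 in the serine/glycine-free library). Macrophages were barcodes with at least 0.1% of their UMIs from C1qa, C1qb and C1qc and no Krt20 UMI (694 and 632). Krt20-positive cells had at least 1 Krt20 UMI and none of Ptprc, the pan-leukocyte gene, and were split by Car9, a hypoxia-induced carbonic anhydrase. Car9-negative cells had 0 Car9 UMIs (3487 and 3395), Car9-positive cells at least 2 (334 and 868), and cells with 1 Car9 UMI (300 and 350) were kept apart. All 7 T cell markers and all 9 macrophage markers were at 10 CPM (UMIs per 1000000 UMIs) or more in their own class in both libraries. Of these, C1qa, C1qb and C1qc are part of the macrophage rule, and Trac and Trbc2 are receptor genes. Those markers are therefore no separate check of the rules. In the Car9-negative and Car9-positive cells the epithelial markers Krt8, Krt7, Krt19, Epcam and Cdh1 were all below 1 CPM, while Krt18 stood at 22.5 and 17.7 CPM in the Car9-negative cells. The fibroblast-associated gene Dcn stood at 259 CPM in Car9-negative cells of the control library and at 510 CPM in those of the serine/glycine-free library, so the cells are called by their rule only.

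Depth differed between the libraries in some classes. The median T cell held 2754 UMIs in the control library and 5845 in the serine/glycine-free library, the median macrophage 9585 and 10472, the median Car9-negative cell 25029 and 21428, and the median Car9-positive cell 25614 and 27470. The summed haemoglobin genes stood at 905 CPM in control T cells and 337 CPM in control macrophages, and at 0 in both classes of the other library. Of the T cells, 17 in the control library and 29 in the serine/glycine-free library carried a Krt20 UMI. Of 242 control T cells, 239 held no haemoglobin UMI. Without haemoglobin-bearing cells the T cell log2 diet ratio was 0.037 for nuclear subunits and 0.018 for mitochondrial transcripts. In all T cells these ratios were 0.036 and 0.022. Without cells bearing signs of another class they were 0.078 and 0.042. The part of depth in the T cell ratios was not tested, nor was that of depth and haemoglobin in the macrophages.

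The first comparison asked whether the transcripts of the respiratory chain differed between the diets within a cell class. UMIs were summed over the cells of a class and divided by the class total without receptor and immunoglobulin genes. The clearest difference was in the mitochondrially encoded transcripts of the Car9-negative cells. Together they made up 19508 CPM (1.95% of UMIs) in the control library and 22770 CPM (2.28%) in the serine/glycine-free library, a ratio of 1.17 (1.16 to 1.17). The ratio was 1.11 (1.1 to 1.12) in the cells with 1 Car9 UMI and 1.02 (1.02 to 1.03) in the Car9-positive cells. It was 1.03 (1.02 to 1.04) in macrophages and 1.02 (1.0 to 1.03) in T cells, where the log2 ratio turned to -0.022 under stricter limits per cell (1000 genes or more, mitochondrial UMIs up to 10%).

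The nuclear-encoded subunits differed less. Their sum went from 26350 CPM in the control library to 25631 CPM in the serine/glycine-free library in the Car9-negative cells, a ratio of 0.973 (0.971 to 0.975). In macrophages it went from 27544 to 26670 CPM, a ratio of 0.968, in Car9-positive cells from 22999 to 22624 CPM, a ratio of 0.984, and in T cells from 24386 to 25011 CPM, a ratio of 1.03. The T cells differed in make-up, in that 69 of 242 held CD8 and no Cd4 UMIs under the control diet and 162 of 243 under the other, and the largest clone had 5 and 64 cells, and among those CD8 cells the nuclear log2 ratio turned to -0.028. These signs also depend on the scaling. The median log2 diet ratio over all genes measured was below 0 in every class (-0.05 in T cells, -0.11 in macrophages, -0.09 in Car9-negative and -0.08 in Car9-positive cells), and relative to that median gene the nuclear sum was higher in all 4 classes, by a log2 ratio of 0.087, 0.063, 0.046 and 0.052. The mitochondrial sum was higher with both of these scalings. For each UMI of a nuclear subunit, the Car9-negative cells held 0.740 mitochondrial UMIs in the control library and 0.888 in the other, against 0.733 and 0.763 in the Car9-positive cells, 0.688 and 0.734 in macrophages and 0.738 and 0.731 in T cells.

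**Figure D1:**
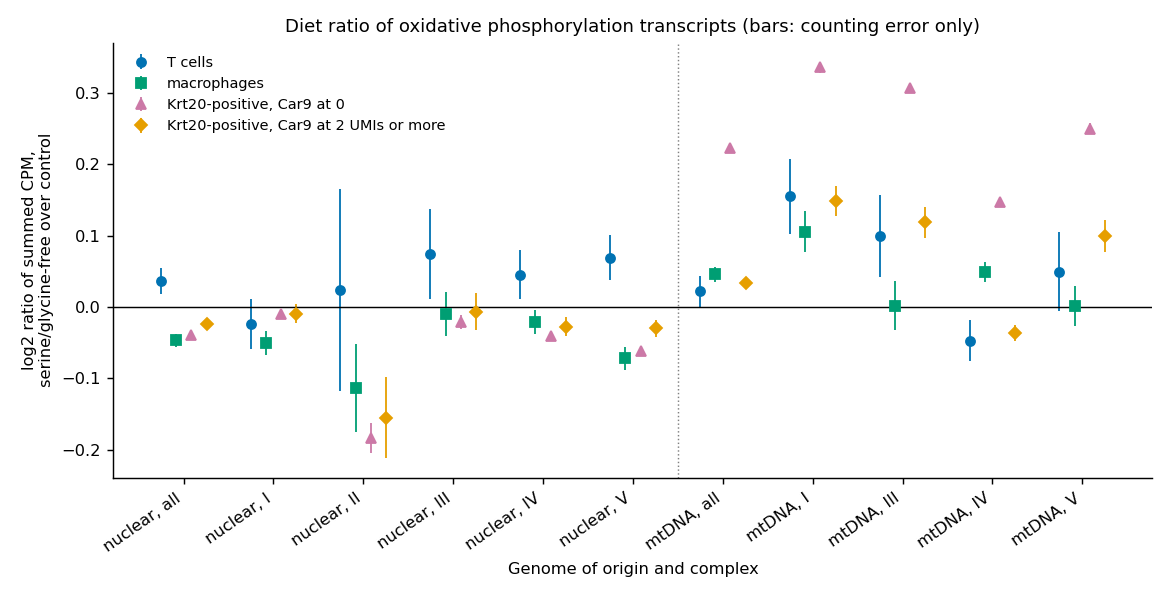
Log2 ratio of summed CPM, serine/glycine-free over control library, for nuclear and mitochondrial (mtDNA) subunits of each complex in 4 cell classes, with 1 library per diet and bars giving exact 95% intervals for counting error. The mitochondrial sets of the Car9-negative cells lie highest, up to 0.34 for complex I, and complex II lies lowest in macrophages and both Krt20-positive classes; scaled to the median gene, the sums of all nuclear subunits lie above 0 in every class.

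All 13 mitochondrial members had a higher level in Car9-negative cells without dietary serine and glycine. The transcript of mt-Nd2 stood at 686 CPM in the control library and 915 CPM in the serine/glycine-free library, a ratio of 1.33 (1.32 to 1.35). For mt-Nd5 the levels were 336 and 448 CPM, a ratio of 1.33, and for mt-Nd4 306 and 408 CPM, also 1.33. The overlapping reading frame mt-Nd4l, which lies on the same transcript as mt-Nd4, went from 1164 to 1455 CPM (1.25), and mt-Nd1 from 882 to 1030 CPM (1.17). The remaining complex I members were scarce, with mt-Nd6, the only member read from the light strand, at 23.0 and 29.8 CPM and mt-Nd3 at 6.14 and 8.27 CPM.

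Cytochrome b (mt-Cytb), the only mitochondrial subunit of complex III, stood at 3113 and 3852 CPM, a ratio of 1.24 (1.23 to 1.24). The complex V pair mt-Atp6 and mt-Atp8, which overlap on 1 transcript so that their reads cannot be fully told apart, gave ratios of 1.24 (516 to 639 CPM) and 1.18 (2357 to 2776 CPM). The catalytic complex IV subunits had the smallest ratios: mt-Co1 1.07 (3546 to 3806 CPM), mt-Co2 1.10 (3793 to 4174 CPM) and mt-Co3 1.16 (2780 to 3228 CPM). Summed by complex, the mitochondrial ratios were 1.26 for complex I, 1.24 for complex III, 1.19 for complex V and 1.11 for complex IV.

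Among all genes measured in these cells, which here means a mean of at least 20 CPM and at least 30 UMIs, 33.4% of 5523 had a log2 ratio above 0. The 12 measured mitochondrial members were all above 0, with a median of 0.31 (log2 ratio of CPM + 5) beside -0.08 for all genes. In the Car9-positive cells 11 of the 12 were above 0, against 34.5% of all genes there, with a median of 0.12. The exception was mt-Co1, at 3926 CPM in the control library and 3603 CPM in the other. In macrophages 10 of 12 were above 0 against 30.3% of genes, with a median of 0.07, and in T cells 7 of 11 against 43.3%, with a median of 0.10. The 3 complex IV members of the T cells all lay below 0, as did mt-Atp8, with mt-Co1 at 3816 and 3617 CPM.

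Cell depth moved with the mitochondrial share. In Car9-negative cells of the control library the median cell's share was 3.73% in cells under 10000 UMIs and 2.23%, 1.79% and 1.71% in the bins from 10000, 20000 and 30000 UMIs. In the serine/glycine-free library the same bins held 4.37%, 2.73%, 2.02% and 1.79%. All 4 bins were thus higher without dietary serine and glycine, and the ratios of summed shares within bins were 1.08, 1.2, 1.13 and 1.05. That library also had more shallow cells, with 485 cells under 10000 UMIs against 239. Krt20, which admits a cell to the class at 1 UMI, stood at 161 CPM in the control library and 257 CPM in the other. These levels come from cells that the rule itself admitted, so they do not show how easily a shallow cell meets it. The part of this entry rule in the mitochondrial difference was not tested.

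Restricted to Car9-negative cells with at least 20000 UMIs (2399 control and 1837 serine/glycine-free cells), 11 of the 12 measured mitochondrial members still had a log2 ratio above 0, where 30% of 5414 genes did, among them mt-Nd2 at 1.25, mt-Nd4 at 1.22, mt-Nd5 at 1.21 and mt-Nd1 at 1.11. In these deep cells mt-Cytb had a ratio of 1.15 and mt-Co2 of 1.03, and mt-Co1 was the exception, at 3269 CPM in the control library and 3187 CPM in the other (0.975, 0.969 to 0.981). The log2 ratio of the mitochondrial sum was 0.11 there and 0.22 over all Car9-negative cells. The part of depth in the remaining difference was not tested. Across single Car9-negative cells the nuclear and the mitochondrial share had a Pearson correlation of -0.38 in the control library (3487 cells) and -0.50 in the other (3395 cells), a description in which both shares have the same cell's total as denominator.

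**Figure D2:**
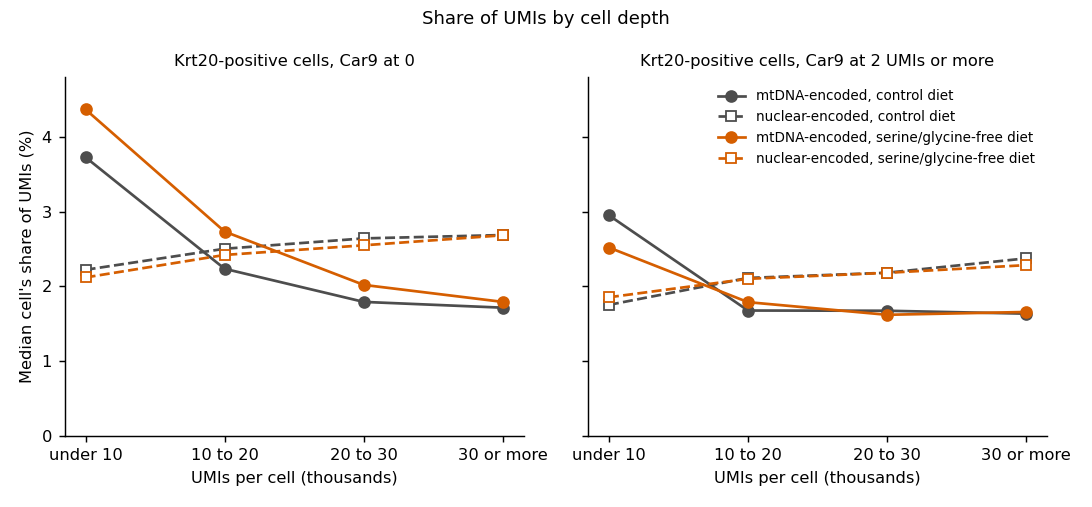
Median cell's share of UMIs (percent) from mitochondrial (mtDNA, filled circles) and nuclear subunits (open squares) in 4 bins of UMIs per cell, for Car9-negative (left) and Car9-positive (right) Krt20-positive cells of each library. On the left the mitochondrial share is higher in the serine/glycine-free library in all 4 bins; on the right the bin under 10000 UMIs holds 6 and 14 cells, and the ratios of summed shares in the deeper bins are 1.06, 0.981 and 1.04.

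No measured member differed by 1.5-fold or more between diets, on the scale of log2(CPM + 5), in these 4 classes. This was 0 of 94 measured members in T cells, where 8.53% of 5967 genes did, and 0 of 94 in macrophages, where 3.59% of 5522 genes did. In Car9-negative cells it was 0 of 95 (2.68% of 5523 genes) and in Car9-positive cells 0 of 91 (2.27% of 5149 genes). Those not measured were alternative complex IV isoforms, mt-Nd3, some Ndufaf genes and, depending on the class, Ndufb4 or mt-Nd6. Of these, some scarce members lay past 1.5-fold: Cox6a2 in Car9-negative cells, Cox6a2 and Ndufa4l2 in Car9-positive cells, and Cox7a1 (11 and 6 UMIs) and mt-Nd6 (18 and 68 UMIs) in T cells.

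Complex II, the complex without a mitochondrial gene, had the lowest nuclear ratio in macrophages and in both Krt20-positive classes. Its 4 subunits summed to 442 CPM in control Car9-negative cells and 389 CPM in those of the serine/glycine-free library, a ratio of 0.880 (0.868 to 0.894). The ratio was 0.898 (0.864 to 0.934) in Car9-positive cells, 0.925 (0.886 to 0.965) in macrophages and 1.02 (0.922 to 1.12) in T cells. In Car9-negative cells the flavoprotein Sdha went from 79.6 to 68.5 CPM, the iron-sulfur protein Sdhb from 175 to 157 CPM, and the membrane anchors Sdhc and Sdhd from 85.8 to 78.5 CPM and from 102 to 85.0 CPM. All 4 were lower, where 66.6% of all genes had a log2 ratio below 0. In macrophages, where 69.7% of genes were below 0, the 4 were lower too, with Sdhc at 119 and 98.7 CPM.

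Other nuclear members stood apart in size. Ndufv3, a small subunit of the NADH-oxidising module of complex I, had the highest diet ratio in Car9-negative cells, at 101 CPM in the control library and 148 CPM in the other (1.46, 1.42 to 1.5). It was also highest in Car9-positive cells (168 and 217 CPM, ratio 1.3) and the second highest in macrophages (279 and 327 CPM, ratio 1.17), whereas T cells held 206 and 219 CPM, with an interval of the ratio that includes 1 (0.927 to 1.23). Next in Car9-negative cells came the complex I accessory subunits Ndufa3 (168 to 209 CPM) and Ndufa6 (308 to 370 CPM). The ATP synthase epsilon subunit Atp5e (572 to 673 CPM) came after them. The same 3 followed in Car9-positive cells, leaving aside members averaging under 50 CPM.

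At the other end was Ndufa4, now counted as a complex IV subunit. It stood at 370 CPM in control Car9-negative cells and 274 CPM in those of the serine/glycine-free library (0.741, 0.729 to 0.754), and at 270 and 193 CPM in Car9-positive cells (0.715, 0.682 to 0.750). In T cells its levels were 389 and 331 CPM and in macrophages 433 and 370 CPM, so it was lower in the serine/glycine-free library in all 4 classes. Cox5a, a nuclear subunit of complex IV, went from 456 to 354 CPM, and the small complex III subunit Uqcrq from 408 to 330 CPM in Car9-negative cells. In Car9-positive cells Atp5o, the peripheral stalk subunit of the ATP synthase, took the place of Sdhd among the 4 lowest with a mean of at least 50 CPM, at 273 and 226 CPM.

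In T cells the highest at a mean of at least 50 CPM were the complex III hinge protein Uqcrh (503 to 641 CPM, ratio 1.28, 1.17 to 1.39), the ATP synthase subunit e gene Atp5k (80.8 to 101 CPM), Cox5b of complex IV (532 to 644 CPM) and Ndufb1-ps of complex I (97.2 to 118 CPM). The lowest at that mean level were the complex I subunits Ndufa5 (153 to 114 CPM, ratio 0.746, 0.627 to 0.889) and Ndufs7 (172 to 135 CPM), the assembly factor Ndufaf8 (66.9 to 52.0 CPM) and Uqcrq (345 to 293 CPM). In macrophages Ndufb1-ps (135 to 167 CPM), Atp5e (726 to 829 CPM) and the small ATP synthase subunit Atp5md (308 to 346 CPM) were among the highest. The catalytic beta subunit Atp5b (611 to 505 CPM), the complex III core protein Uqcrc1 (214 to 178 CPM), Sdhc and the iron-sulfur subunit Ndufs7 (238 to 201 CPM) were the lowest at that mean level. In both classes scarcer measured members, Ndufs1 among them, lay lower. Near-identical processed copies exist for several subunit genes, and the symbol Ndufb1-ps carries the suffix of a pseudogene, so single-gene levels of this kind are uncertain.

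Lists outside the rule were read in the same way. In Car9-negative cells 17 of 18 measured citric acid cycle genes and 59 of 74 mitochondrial ribosome genes had a log2 ratio below 0, as did 66.6% of all genes, with medians of -0.15 and -0.12 beside -0.08 for all genes. Fh1 (fumarate hydratase) stood at 80.0 and 60.1 CPM. The carriers of electrons and adenine nucleotides were lower in 9 of 12, against 66.6% of all genes. The exchanger Slc25a5 stood at 781 and 538 CPM (0.689) and cytochrome c (Cycs) at 617 and 490 CPM (0.793), whereas Slc25a4 of the same list was higher, at 112 and 130 CPM (1.16). Lonp1, a mitochondrial protease, stood at 84.8 and 58.6 CPM. The complex III subunit Cyc1 and the ATP synthase inhibitor Atpif1, which the symbol rule does not take, went from 175 to 146 CPM and from 351 to 309 CPM. Hypoxia targets were higher: 8 of 8 measured in Car9-negative cells were above 0, with a median of 0.46, among them Ndrg1 (134 to 239 CPM) and Bnip3 (140 to 241 CPM). They were also above 0 in 8 of 8 in Car9-positive cells, 6 of 7 in macrophages and 7 of 7 in T cells, where 34.5%, 30.3% and 43.3% of all genes were, against 33.4% in Car9-negative cells. Their part in the diet ratios of the members was not tested.

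RefSeq promoter windows of 300 bases (250 before to 50 after the transcription start, build GRCm38.p6) were at hand for 75 of the 107 members, and were searched on both strands for motifs of factors known to act on respiratory chain genes. The motif of NRF1 occurred in 19 of the 75 (25.3%), against 5.19% of all 27025 genes with a window and 13.7% of the 4421 genes at 20 CPM or more in Car9-negative cells. The core CCGGAAG of the ETS family, to which GABP belongs, was also in 25.3%, against 9.93% of all genes and 23.5% of the expressed ones. The YY1 motif AAGATGGC was in 13.3%, against 3.19% and 6.13%. The hypoxia response core ACGTGC was in 5.33% of members, against 6.68% of all genes and 10.6% of the expressed ones. Windows around the motif are shown for members named for their diet ratio (Atp5e, Uqcrh, Atp5k and Ndufa3), for the c-ring gene Atp5g3, and for the isoform Cox7a1, which is described with the Car9 comparison, with the motif in capitals; all but that of Ndufa3 read as the reverse complement of the motif. Atp5e lies at chr2:174464172-174464228 (minus strand), Uqcrh at chr4:116075049-116075105 (minus), Atp5k at chr5:108434370-108434412 (minus), Ndufa3 at chr7:3617370-3617402 (plus), Atp5g3 at chr2:73911297-73911339 (minus) and Cox7a1 at chr7:30184154-30184200 (plus).
Atp5e, ETS: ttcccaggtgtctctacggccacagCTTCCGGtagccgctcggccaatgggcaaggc
Uqcrh, ETS: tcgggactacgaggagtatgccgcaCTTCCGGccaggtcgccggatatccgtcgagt
Atp5k, ETS: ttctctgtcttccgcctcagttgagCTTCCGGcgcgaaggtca
Ndufa3, YY1: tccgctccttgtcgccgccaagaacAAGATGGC
Atp5g3, NRF1: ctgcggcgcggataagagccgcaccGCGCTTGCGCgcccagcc
Cox7a1, hypoxia response: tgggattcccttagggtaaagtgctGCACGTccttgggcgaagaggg
The members shown for their diet ratio were all among the highest of a class. The same motifs also occur in members named among the lowest, the ETS core in Sdhd and Ndufaf8 and the YY1 motif in Ndufs7 and Ndufaf8. The hypoxia response core was also in Atp5g3, Cox8b and Ndufa1. A match describes the letters in the window and does not show that a factor binds there.

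The second comparison set Car9-positive against Car9-negative cells within each library, and so asked how the chain differs in cells with a hypoxia-induced transcript. These are the same cells as in the diet comparison, so the values of both are not independent. The cells of a comparison shared a library but differed in depth, and a deeper cell reaches 2 Car9 UMIs more easily. The median Car9-positive and Car9-negative cell held 25614 and 25029 UMIs in the control library, and 27470 and 21428 in the other. Under 10000 UMIs lay 6 of 334 Car9-positive and 239 of 3487 Car9-negative cells in the control library. In the other they were 14 of 868 and 485 of 3395, and 355 and 899 of these lay at 30000 UMIs or more. Nuclear subunits were lower in Car9-positive cells, at 22999 against 26350 CPM in the control library (0.873, 0.869 to 0.877) and at 22624 against 25631 CPM in the serine/glycine-free library (0.883, 0.880 to 0.885). Mitochondrial transcripts were lower too, at 16861 against 19508 CPM (0.864, 0.860 to 0.869) and at 17260 against 22770 CPM (0.758, 0.756 to 0.76). The size depended on depth: as log2 ratios these are -0.21 and -0.40, which became -0.12 and -0.20 in cells with at least 20000 UMIs, and -0.34 and -0.65 with equal weight for each cell. As in the diet comparison, the median gene was itself below 0, by a log2 ratio of -0.13 and -0.14, and relative to it the nuclear sums were still lower, at log2 ratios of -0.065 and -0.044, and so were the mitochondrial sums, at -0.079 and -0.26.

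In the control library 72 of 77 measured nuclear subunits had a log2 ratio below 0, where 73.6% of 5401 genes did, with a median of -0.23 beside -0.12 for all genes. In the serine/glycine-free library it was 69 of 77, where 71.4% of 5267 genes did, with medians of -0.23 and -0.12. Past 1.5-fold on the log2(CPM + 5) scale were 2 of 94 members in the control library (2.72% of all genes). These were Ndufv3, higher (1.37% of all genes), and the assembly factor Ndufaf4, lower (1.35%), at 33.1 and 18.0 CPM. In the other library they were 4 of 92 (3.47% of all genes), namely mt-Nd1, mt-Nd4l, mt-Nd5 and mt-Cytb, all lower (2.07%), with none higher (1.4%). In cells with at least 20000 UMIs none of these 4 lay past 1.5-fold, with ratios of 0.715, 0.741, 0.777 and 0.754. There only Ndufv3 did, 1 of 92 measured members (3.03% of all genes), whereas in deep cells of the control library Ndufv3 and Ndufaf4 lay past it again, 2 of 93 (2.46% of all genes).

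By complex, the nuclear ratios lay close together in both libraries. They were 0.862 and 0.862 for complex I, 0.845 and 0.862 for complex II, 0.843 and 0.851 for complex III, 0.861 and 0.869 for complex IV and 0.899 and 0.919 for complex V. The mitochondrial ratios spread more widely, at 0.751 and 0.659 for complex I, 0.747 and 0.655 for complex III, 0.812 and 0.732 for complex V and 0.953 and 0.839 for complex IV. Cytochrome b (mt-Cytb) stood in the control library at 3113 CPM at 0 Car9 UMIs, 2648 at 1, 2442 at 2 to 5 and 1743 CPM at 6 or more, and in the other at 3852, 3261, 2689 and 2235 CPM. In contrast mt-Co1 stood at 3546, 3798, 3884 and 4131 CPM in the control library and at 3806, 3736, 3586 and 3633 CPM in the other, so the direction for mt-Co1 was not shared by the libraries over all depths. In cells with at least 20000 UMIs mt-Co1 was higher in Car9-positive cells of both, with ratios of 1.15 (1.13 to 1.16) and 1.09 (1.09 to 1.1), and mt-Cytb was lower in both, with 0.811 and 0.754.

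**Figure D3:**
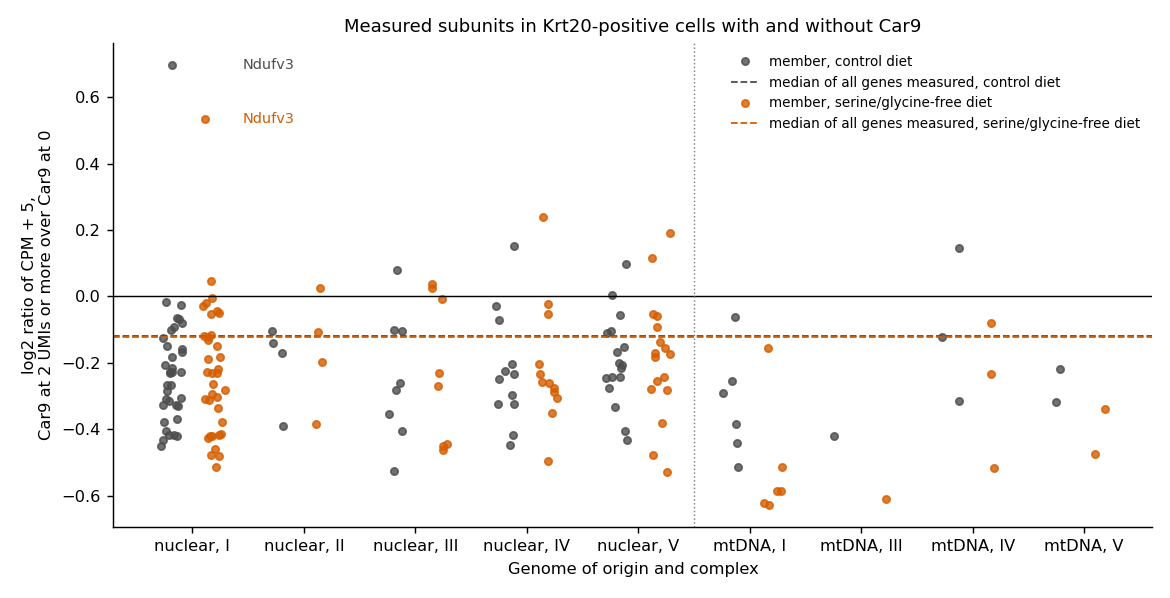
Log2 ratio of CPM + 5, cells with at least 2 Car9 UMIs over cells with 0, for each measured subunit by genome of origin and complex in the 2 libraries, with dashed lines at the median of all genes measured. Most subunits lie below 0 and below the dashed lines, Ndufv3 lies at 0.70 and 0.53, and the mitochondrial complex IV members lie above mt-Cytb.

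Ndufv3 stood apart from the other nuclear members. It went from 101 CPM in Car9-negative cells to 168 CPM in Car9-positive cells in the control library (1.65, 1.57 to 1.74) and from 148 to 217 CPM in the other (1.46, 1.42 to 1.51), in steps along the Car9 UMIs of 101, 134, 159 and 211 CPM and of 148, 175, 203 and 242 CPM. Of those averaging 50 CPM or more, Cox7a2l was the next highest (273 to 304 and 246 to 291 CPM). It takes part in supercomplex assembly. Then came the c-ring subunit Atp5g2 (1313 to 1406 and 1283 to 1467 CPM). The central-stalk gamma subunit Atp5c1 followed (479 to 481 and 435 to 472 CPM). The control ratio of Atp5c1 had an interval that includes 1 (0.974 to 1.03).

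The lowest nuclear members averaging 50 CPM or more were Uqcrq, Ndufs8, Ndufa4 and Atp5k. In the control library and the other, Uqcrq went from 408 to 282 and from 330 to 238 CPM. The iron-sulfur subunit Ndufs8 went from 85.8 to 62.2 and from 89.6 to 61.3 CPM. Ndufa4 went from 370 to 270 and from 274 to 193 CPM, and Atp5k from 80.6 to 59.7 and from 88.3 to 59.7 CPM. The ratios of these genes lay between 0.676 and 0.740. The scarcer assembly factor Ndufaf4 lay lower still in the control library. Of complex II, Sdhb was lower in both libraries (0.757 and 0.758), whereas Sdha had ratios of 0.902 and 1.02. The complex I assembly factors as a set had ratios of 0.748 (0.710 to 0.788) and 0.797 (0.771 to 0.824).

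Outside the rule, 8 of 8 measured hypoxia targets were past 1.5-fold higher in both libraries, with medians of 1.32 and 1.23, where 1.37% and 1.4% of all genes were past it in that direction. Pgk1, a glycolytic enzyme, stood at 1095 and 3466 CPM in the control library. Among the electron carriers, 12 of 12 and 10 of 11 were below 0, where 73.6% and 71.4% of all genes were, with Cycs at 617 and 405 CPM in the control library and 490 and 324 CPM in the other. Of the mitochondrial ribosome, 67 of 72 and 63 of 69 genes were below 0, against the same shares of all genes, both with a median of -0.28 beside -0.12. In contrast Lonp1 was higher in Car9-positive cells, at 84.8 and 98.5 CPM and at 58.6 and 83.9 CPM.

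The isoform pair of Ndufa4 moved in opposite directions along Car9 in both libraries. Ndufa4 stood at 370, 309, 279 and 226 CPM at 0, 1, 2 to 5 and 6 or more Car9 UMIs in the control library, and at 274, 228, 201 and 181 CPM in the other. Ndufa4l2, its hypoxia-associated paralog, was far scarcer and below the minimum for a measured gene, at 3.63, 6.49, 7.99 and 12.0 CPM and at 7.1, 8.0, 12.1 and 43.5 CPM. In the highest bin of the serine/glycine-free library its 417 UMIs came from 44 of 294 cells, 59.2% of them from 10 cells, and in the control library its 19 UMIs came from 5 of 60 cells. After thinning each cell to 5000 UMIs, 2.86% of control and 5.52% of serine/glycine-free Car9-positive cells held a Ndufa4l2 UMI (6.59% and 10.1% before thinning), against 1.23% and 1.84% of Car9-negative cells, 0.434% and 0.706% of macrophages, and 1.4% and 0.978% of T cells, of which 70 and 137 were deep enough. Cells in none of the classes held a further 687 Ndufa4l2 UMIs in 143 of 3215 control cells and 811 in 133 of 2434 cells of the other library.

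**Figure D4:**
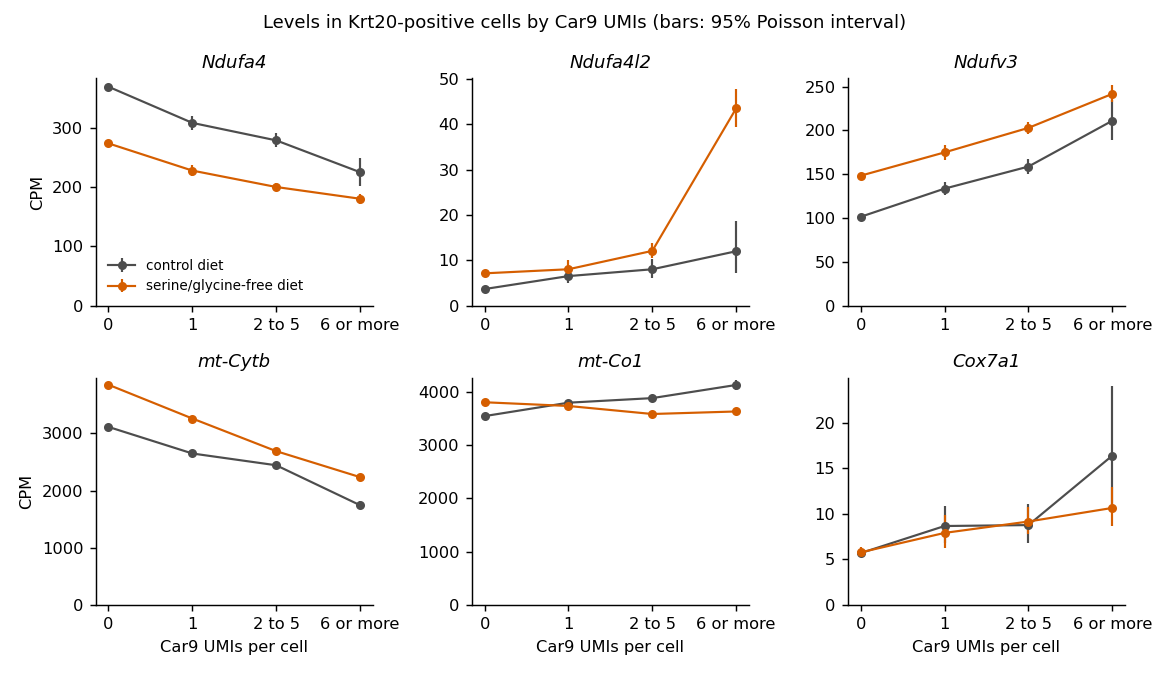
Levels (CPM) of 6 members in Krt20-positive cells with 0, 1, 2 to 5 and 6 or more Car9 UMIs in each library, with exact 95% Poisson intervals. Ndufa4 and mt-Cytb are lower and Ndufv3 and Ndufa4l2 higher at 6 or more Car9 UMIs than at 0 in both libraries, and mt-Co1 runs in opposite directions, though in cells with at least 20000 UMIs it was higher with Car9 in both.

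Alternative isoforms of complex IV differed between the cell classes. Cox4i2, the isoform of Cox4i1 known from lung and from oxygen sensing, had 92 UMIs in 70 of 694 control macrophages (12.7 CPM) and 148 UMIs in 88 of 632 macrophages of the serine/glycine-free library (21.0 CPM). The Car9-negative cells, which were deeper, held 8 and 34 UMIs (0.0880 and 0.429 CPM), and the T cells 0 and 2. After thinning to 5000 UMIs, 5.38% and 8.64% of macrophages held a Cox4i2 UMI (10.1% and 13.9% before thinning), against 0.0539% and 0.198% of Car9-negative cells (0.229% and 0.825%). The cells in none of the classes held a further 63 Cox4i2 UMIs in 27 of 3215 cells and 74 in 42 of 2434 cells, and were not described further. Thinning left out 131 of 694 and 95 of 632 macrophages as too shallow. The common isoform Cox4i1 stood at 1348 and 1239 CPM in macrophages and 1296 and 1237 CPM in Car9-negative cells.

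The diet ratio of Cox4i2 in macrophages was 1.65 (1.26 to 2.17). In the serine/glycine-free library its highest cell held 12 of the 148 UMIs, and in the control library 6 of 92. Macrophages with a Cox4i2 UMI were deeper than those without (medians of 12630 and 9196 UMIs in the control library and 12018 and 10224 in the other). Their summed hypoxia targets stood at 3692 against 2852 CPM in the control library, with 6 of 6 measured above 0 and a median of 0.51, and at 4858 against 3253 CPM in the other, with 8 of 8 and a median of 0.66. Slc2a1, the glucose transporter, stood at 195 against 106 CPM and at 268 against 156 CPM, and the 6 macrophage markers that the class rule did not use summed to 6472 against 7325 CPM, a ratio of 0.884 with 2 of 6 higher, and to 8680 against 8082 CPM, a ratio of 1.07 with 4 of 6 higher. In the control library Apoe, Adgre1, Mrc1 and Csf1r were the lower ones, with ratios of 0.762, 0.812, 0.876 and 0.838. Over all genes measured in the control library, 2696 of 5592 were higher in the Cox4i2 cells, with a median of -0.01. In the other library 2500 of 5361 were, with a median of -0.015. The fibroblast markers were higher in the control library, summing to 683 against 241 CPM, a ratio of 2.83 with 4 of 4 measured higher. In the other library they summed to 216 against 167 CPM, a ratio of 1.29 with 1 of 2 measured higher. There Dcn was the higher one (171 against 89.5 CPM) and Col1a2 the lower (24.1 against 33.8 CPM). Col1a1, Col3a1 and Pdgfra, below the minimum for a measured gene, were also lower there. The part of admixed RNA and of depth in these values was not tested.

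Cox6b2, the isoform of Cox6b1 first described in testis, was at 4.42 and 4.11 CPM in macrophages (32 and 29 UMIs) and at 3 and 1 UMIs in the Car9-negative cells. Thinned, 2.35% and 2.12% of macrophages held a UMI (4.47% and 4.59% before thinning), against 0.0225% and 0.00659% of Car9-negative cells. T cells held 3 and 3 UMIs (1.89 and 1.2 CPM), with intervals that overlapped those of macrophages, and 0.943% and 0.459% of them held a UMI when thinned. Cells in none of the classes held a further 30 and 21 Cox6b2 UMIs. Cox6b1 stood at 704 and 708 CPM in macrophages. Cox6a2, the heart and muscle isoform, differed between the libraries in the Krt20-positive cells. It had 1300 UMIs in 568 of 3487 control Car9-negative cells (14.3 CPM) and 187 UMIs in 110 of 3395 cells of the serine/glycine-free library (2.36 CPM), a ratio of 0.165 (0.141 to 0.193). In Car9-positive cells it stood at 7.92 and 1.06 CPM. The 10 highest cells held 8.38% of the control UMIs. Thinned, 5.43% of control and 0.934% of serine/glycine-free Car9-negative cells held a UMI (16.3% and 3.24% before thinning), against 0.977% and 1.22% of macrophages. The common isoform Cox6a1 stood at 573 and 558 CPM in the same Car9-negative cells.

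Cox7a1, also a heart and muscle isoform, was higher in Car9-positive cells of both libraries. It stood at 5.68 CPM in Car9-negative and 10.0 CPM in Car9-positive control cells (1.77, 1.4 to 2.2), and at 5.76 and 9.69 CPM in the other library (1.68, 1.44 to 1.97). The diet ratio in Car9-negative cells was 1.01 (0.892 to 1.15). Its partner isoform Cox7a2 was lower in Car9-positive cells, at 431 and 362 CPM in the control library and 440 and 374 CPM in the other. Macrophages held 12.3 and 14.2 CPM of Cox7a1. Cox8a stood at 1248 and 1300 CPM in Car9-negative cells, where the muscle isoform Cox8b had 0 and 1 UMIs and Cox7b2 4 and 5. Cox8c had 0 UMIs in all 4 classes of both libraries, and a count of 0 allows up to 3 as a one-sided limit, unlike the intervals given elsewhere.

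**Figure D5:**
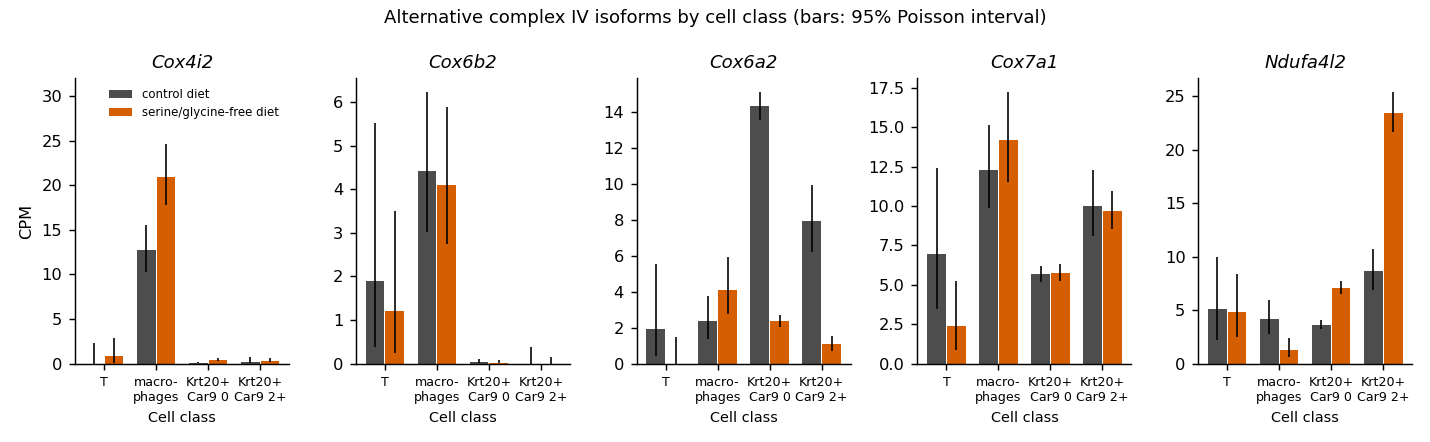
CPM of 5 alternative complex IV isoforms in T cells, macrophages and Krt20-positive cells with 0 or at least 2 Car9 UMIs, by library, with exact 95% Poisson intervals and a separate vertical scale for each gene. Of the classes shown, Cox4i2 and Cox6b2 are highest in macrophages, Cox6a2 in control Car9-negative cells at 14.3 CPM, and Ndufa4l2 in Car9-positive cells of the serine/glycine-free library at 23.5 CPM. The Cox6b2 intervals of macrophages and T cells overlap.

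The third comparison set T cells, macrophages and Car9-negative cells beside each other within a library. Of these classes, the summed nuclear subunits were highest in macrophages and lowest in T cells in both libraries. The Car9-positive cells, described above, were lower than the T cells in both. They stood at 24386 CPM in T cells, 27544 in macrophages and 26350 in Car9-negative cells of the control library, and at 25011, 26670 and 25631 CPM in the other. Complex II was higher in macrophages, at 617 CPM against 442 CPM in control Car9-negative cells (1.4, 1.35 to 1.44) and at 571 against 389 CPM in the other library (1.47, 1.42 to 1.51), with Sdhb at 264 and 256 CPM in macrophages and 175 and 157 CPM in Car9-negative cells. Ndufv3 was at 279 and 327 CPM in macrophages and 101 and 148 CPM in Car9-negative cells. Mitochondrial transcripts divided by complex. The macrophage level of mt-Cytb was 0.624 and 0.505 of that in Car9-negative cells, at 1943 and 1946 CPM, while mitochondrial complex IV was at 1.13 and 1.06 of it, with mt-Co1 at 4560 and 4862 CPM. In T cells mt-Cytb lay between the other classes, at 2424 and 2597 CPM, while mt-Co1, at 3816 and 3617 CPM, lay between them in the control library and below both in the other. Median depth differed between the classes in both libraries, and cells of matched depth were not compared here. The part of depth in these class differences was not tested.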

How the data were processed

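The authors deposited UMI counts per gene and cell barcode for 2 droplet libraries, as matrices of barcodes called cells, with tables of receptor contigs. The matrices name Cell Ranger 7.1.0 per the file headers, whereas version 2.2.2 and the build mm10 stand in the notes, per the submitters' processing notes. No other step is given in the sources used here.

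Barcodes with fewer than 300 genes or more than 20% mitochondrial UMIs were left out. T cells, macrophages and Krt20-positive cells were taken by the rules given with the results. No doublet caller was run, and cells with signs of another class were left out in an alternative. Counts were summed per class and library, divided by the total without receptor and immunoglobulin genes, and given as CPM with exact Poisson intervals. Ratios carry exact conditional binomial intervals, and per-gene log2 ratios used CPM + 5. UMIs remove amplification copies, and the intervals cover counting error only. A gene was measured at a mean of at least 20 CPM and at least 30 UMIs in all. Shares of cells were thinned to 5000 UMIs by the exact hypergeometric expectation. With 1 library per diet no test was made. Alternatives were scaling by the median gene, equal weight for each cell, stricter or no limits on cells, a higher gene minimum and a smaller pseudocount.

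Named were all mitochondrial members, all Sdh genes, the isoform pairs, and, of the nuclear members averaging 50 CPM or more, the 4 highest and 4 lowest per class and for Car9. From each outside list up to 3 genes with the largest ratio could be named. Other genes named beside a result (Cyc1, Ndufaf4, Ndufs1, Atp5g3, Cox7b2, Cox8c, Dcn, Krt18, Krt20 and, beside Cox4i2, Slc2a1, 4 macrophage markers and the fibroblast markers) were chosen after their values were seen. Members and lists were chosen with earlier results of these data known. The computation used Python 3.11.15, numpy 2.4.6, scipy 1.17.1 and pandas 2.3.3, and was tested on simulated data. Promoter windows came from RefSeq (GRCm38.p6).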

Additional observations from a re-analysis of the deposited data

Results flagged for a closer look

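The sums of some sets went opposite ways between the diets in different cell classes. With 1 library per diet, none of these differences between classes was tested. For the nuclear-encoded subunits the log2 diet ratio was 0.036 in T cells, -0.047 in macrophages, -0.040 in Car9-negative cells and -0.024 in Car9-positive cells, and relative to the median gene all 4 were above 0.

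For the 3 mitochondrial complex IV genes (mt-Co1, mt-Co2 and mt-Co3) it was 0.049 in macrophages and 0.15 in Car9-negative cells, and -0.047 in T cells and -0.037 in Car9-positive cells.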

How the results depend on the processing

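No paired analysis was possible because each diet had 1 library, and for the same reason no replicate could be left out. Values are log2 ratios, and the cause of a move was not tested. Scaling by the median gene turned the nuclear diet ratio to 0.063 in macrophages, 0.046 in Car9-negative and 0.052 in Car9-positive cells (0.087 in T cells). The nuclear Car9 ratio became -0.065 (control library) and -0.044, the mitochondrial Car9 ratio -0.079 and -0.26, and the mitochondrial diet ratio 0.072 in T cells, 0.15 in macrophages, 0.31 in Car9-negative and 0.11 in Car9-positive cells, with 1 member past 1.5-fold in Car9-negative cells. Giving each cell equal weight put the nuclear diet ratio at 0.075 (T cells), -0.061 (macrophages) and -0.070 (Car9-negative), the mitochondrial one at 0.17, 0.10, 0.32 and 0.016 (Car9-positive last), the nuclear Car9 ratio at -0.21 and -0.16 and the mitochondrial one at -0.34 and -0.65. Under stricter limits per cell (1000 genes or more, mitochondrial UMIs up to 10%) the mitochondrial diet ratio was -0.022 in T cells (turned), 0.033 in macrophages and 0.22 in Car9-negative cells, and the Car9 ratios -0.20 and -0.39. Without cells bearing signs of another class the nuclear T cell ratio was 0.078, and a pseudocount of 1 CPM put 2 members past 1.5-fold in T cells.

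Other alternatives were chosen after seeing the data. In cells with at least 20000 UMIs the nuclear diet ratio was -0.019 and the mitochondrial one 0.11 in Car9-negative cells, the mitochondrial Car9 ratios -0.12 and -0.20 and the nuclear one -0.20 in the serine/glycine-free library. In T cells with Cd8a or Cd8b1 and no Cd4 (69 and 162 cells) the nuclear ratio turned to -0.028 and the mitochondrial one was 0.082. Leaving out the largest clone (5 and 64 cells) or cells with haemoglobin moved neither T cell ratio beyond its counting interval. Of the values recomputed, 48 stayed within their intervals or counts, 33 moved and 5 turned.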
